A study of Homo sapiens with 6 samples.

Results

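The genes described here are 10 that are known to be switched on by the ERK branch of the MAP kinase pathway and that mostly act to restrain it. They are the dual-specificity phosphatases DUSP4, DUSP5 and DUSP6, the Sprouty genes SPRY1, SPRY2 and SPRY4, the Sprouty-related genes SPRED1 and SPRED2, and the ETS transcription factors ETV4 and ETV5. They were picked out by symbol from the 36459 gene symbols of the count table. The rule itself uses no measured value, but the list was chosen with earlier results of these data known. All 10 passed the filter on low counts, as members of a set of 14626 tested genes. Bulk poly-A RNA-seq compared parental PC9, a human lung adenocarcinoma line that depends on mutant EGFR, with PSPC9, the drug-tolerant persister cells that were left after 6 days in 15 µM erlotinib. Erlotinib is an inhibitor of the EGFR kinase, which lies upstream of ERK. Each condition had 3 libraries. Parental cells came from 3 independent cultures without the drug, and the persister libraries were pooled from 9 separately grown cultures. Both conditions derive from 1 cell line, and the persister cells were taken at the end of the drug exposure, so the direct effect of the drug and the persister state cannot be told apart.

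Growth factor receptors such as EGFR activate RAS, which activates RAF, MEK and then ERK. Active ERK enters the nucleus and induces transcription of its own inhibitors, so the mRNAs of these feedback genes are widely read as a measure of ERK output in EGFR- or RAF-driven tumours. The phosphatases remove the activating phosphates from ERK itself, Sprouty proteins act between the receptor and RAS, SPRED proteins bring the RAS GTPase-activating protein neurofibromin to the membrane, and ETV4 and ETV5 carry the signal on to target genes.

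The libraries held 29476725 to 34893782 gene counts. The mitochondrially encoded genes took 1.90% to 3.37% of them in PC9 and 3.39% to 3.96% in PSPC9. Libraries of the same condition differed by more than sampling noise (chi-square per degree of freedom 3.53 to 21.1). This spread does not show that they are independent, and each was kept as a replicate because the labels number it as one. The epithelial markers fitted the label of a carcinoma line, with all 6 detected and a summed level of 5861 to 6345 CPM (normalized counts-per-million) in PC9 and 3549 to 3727 CPM in PSPC9, where 5 of them were lower and 1 higher. Of the 7 fibroblast markers 2 could be tested and both rose, and the list summed to 10.4 to 11.02 CPM in PC9 and 27.4 to 30.8 CPM in PSPC9, with COL3A1 at 0 in all libraries. The 6 haematopoietic markers summed to 74.9 to 77.0 CPM in PC9 and 19.7 to 22.9 CPM in PSPC9, mostly from CD68, the 1 of 3 tested with an adjusted p under 0.01, with CD3E and HBB at 0 in all libraries. The 5 endothelial markers summed to 8.28 to 9 CPM in PC9 and 3.73 to 4.27 CPM in PSPC9, and 1 of 2 tested was lower at that limit. Of 8 proliferation genes 5 were higher in PSPC9 and 0 lower at that limit. Their summed level was 1433 to 1559 CPM in PC9 and 1934 to 1998 CPM in PSPC9. The share called, 62.5%, was near the 56.8% of all tested genes, and 28.7% of all tested genes were higher. The median log2 fold change of the 8 was 0.27, and 0 of them rose by more than 2-fold. The paper describes PSPC9 as cycling more slowly than PC9, and cycling itself was not measured here. The part of these marker levels in the results was not tested. In bulk RNA a lower level can come from fewer cells that make an mRNA or from less of it per cell, and these cannot be told apart.

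The feedback genes fell in the persister cells, and they fell by very unequal amounts. Of the 10 genes 9 passed the limit of an adjusted p of 0.01 in edgeR's quasi-likelihood test, and all 9 were lower in PSPC9. Across all tested genes 56.8% passed that limit in either direction and 28.1% passed it in the lower direction. The difference exceeded 2-fold for 7 of the 10, against 5.91% of all tested genes that were lower by this much. The 3 PC9 values did not overlap the 3 PSPC9 values for 9 of the 10, which held for 71.3% of all tested genes. Over the 10 genes the median log2 fold change was −1.44, and over all tested genes it was −0.01. Summed over the 10 genes, the level was 453 to 473 CPM in the PC9 libraries and 221 to 226 CPM in the PSPC9 libraries. With 3 libraries against 3, an exact two-sided permutation test of a single gene cannot go below p = 0.1, so the p-values given are those of the fit across all genes.

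**Figure D1:**
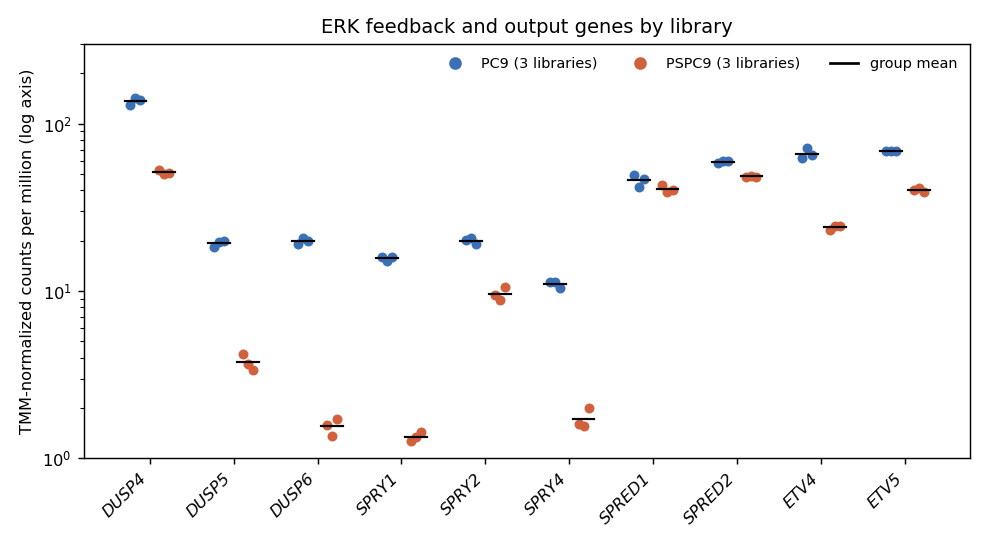
TMM-normalized counts-per-million (log axis) of the 10 genes, with a point for each of the 3 PC9 (blue) and 3 PSPC9 (orange) libraries and a bar at each group mean. DUSP6, SPRY1 and SPRY4 sit near 1 to 2 CPM in PSPC9, while only SPRED1 has overlapping groups.

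RefSeq's promoter table (GRCh38.p14) held windows for 6 of the 10 genes, 10 windows in all, each from 250 bases before a transcription start to 50 bases after it. The parts upstream of the start are shown for 3 of these genes that span the range of differences, DUSP6 with the largest fall, SPRY2 with an intermediate one and SPRED1, which did not pass the limit. Capitals mark GGAA on either strand (TTCC on the strand shown), the core that ETS factors such as ETV4 and ETV5 recognize.
DUSP6 (chr12:89352502-89352751, minus strand): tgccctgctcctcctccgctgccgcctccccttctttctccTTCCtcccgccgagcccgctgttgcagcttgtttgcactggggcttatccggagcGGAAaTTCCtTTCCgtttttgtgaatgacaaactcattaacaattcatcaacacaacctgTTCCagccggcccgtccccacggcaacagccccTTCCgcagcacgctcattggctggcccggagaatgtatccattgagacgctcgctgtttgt
SPRY2 (chr13:80341127-80341376, minus strand): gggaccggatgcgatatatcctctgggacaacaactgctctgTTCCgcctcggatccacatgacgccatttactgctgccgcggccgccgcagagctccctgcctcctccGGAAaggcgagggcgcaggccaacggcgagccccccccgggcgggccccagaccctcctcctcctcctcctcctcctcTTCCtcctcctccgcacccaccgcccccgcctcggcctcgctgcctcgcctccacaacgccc
SPRED1 (chr15:38252586-38252835, plus strand): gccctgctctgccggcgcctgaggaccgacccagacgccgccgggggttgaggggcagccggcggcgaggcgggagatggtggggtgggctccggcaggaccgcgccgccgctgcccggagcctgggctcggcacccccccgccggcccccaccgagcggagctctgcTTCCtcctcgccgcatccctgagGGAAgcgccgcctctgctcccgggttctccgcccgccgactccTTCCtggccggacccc

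The core is common, and the windows of these genes did not share a rarer motif. GGAA was matched in 95.45% of the 35116 RefSeq windows of the same length, with a median of 3 matches, and 6 or more matches were found in 16.1%. The window at the DUSP6 start held 6 matches and that at the main SPRED2 start 6, while the windows at the SPRY2-202 and SPRED1 starts held 3 each. The longer ETS site CCGGAAG, which contains the core and was present in 10.3% of all windows, was matched only in the SPRY1 window at chr4:123398136-123398435, 67 bases upstream of the start of the transcript SPRY1-208. The AP-1 site TGANTCA, present in 7.71% of all windows, was matched 2 times in the second SPRED2 window (chr2:65366729-65367028) and in no other. That window lies 65821 bases from the start of SPRED2-201, the transcript with 99.3% of the SPRED2 counts in PC9. The cyclic AMP response element TGACGTCA, the CIC site TGAATGAA and the CArG box, found in 1.85%, 1.66% and 1.29% of all windows, had no match in the 10 windows. All motifs were searched on both strands, and these matches describe the letters of the windows and not binding.

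Among the phosphatases, DUSP6 and DUSP5 were reduced to a small part of their parental level and DUSP4 less so. DUSP6 encodes a cytoplasmic phosphatase with a high preference for ERK (ENSG00000139318, GRCh38 chromosome 12, 89347235 to 89352501, minus strand). Its level was 19.1, 20.9 and 20.1 CPM in the PC9 libraries and 1.58, 1.37 and 1.73 CPM in the PSPC9 libraries. In raw counts these were 658, 710 and 675 against 46, 43 and 59. The PSPC9 values lay close together and far below every PC9 value, and the fitted level was 7.81% of the parental one. The log2 fold change was −3.68 ± 0.10 (SE), with a Benjamini-Hochberg adjusted p of 2.22e-10 from edgeR's quasi-likelihood test. By size of fall it ranked 41 among the 14626 genes tested. Of the 31-base words in the transcripts of DUSP6, 26.3% also occur in an antisense lncRNA (ENSG00000274021) that has no row of its own in the transcript table, so that reads from this RNA and DUSP6 cannot be told apart here.

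DUSP5 encodes a nuclear phosphatase that is likewise selective for ERK (ENSG00000138166, chromosome 10, 110497907 to 110511533, plus strand). The PC9 libraries had 18.4, 19.6 and 19.99 CPM and the PSPC9 libraries 4.18, 3.65 and 3.40 CPM. The groups were widely separated, and the log2 fold change was −2.37 ± 0.09 (SE, adjusted p = 2.24e-09 by edgeR). DUSP4, which encodes a nuclear phosphatase that acts on ERK and also on the stress kinase JNK (ENSG00000120875, chromosome 8, 29333064 to 29350684, minus strand), had 129, 142 and 139 CPM in PC9 and 52.7, 49.8 and 51.1 CPM in PSPC9. It too had no overlap, and its fitted level in PSPC9 was 37.4% of that in PC9 (log2 fold change −1.42 ± 0.05 SE, adjusted p = 1.18e-09 by edgeR).

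All 3 Sprouty genes of the set fell, SPRY1 and SPRY4 far more than SPRY2. Sprouty proteins bind adaptors such as GRB2 and lower the activation of RAS and RAF downstream of receptor tyrosine kinases. SPRY1 (ENSG00000164056, chromosome 4, 123396795 to 123403760, plus strand) had 15.9, 15.1 and 16.1 CPM in PC9 and 1.27, 1.33 and 1.43 CPM in PSPC9. Its raw counts were 547, 515 and 541 in PC9 and 37, 42 and 49 in PSPC9. In the fit the persister libraries kept 8.62% of the parental level, which is −3.54 ± 0.10 (SE) on the log2 scale (adjusted p = 2.55e-10, edgeR). SPRY4 (ENSG00000187678, chromosome 5, 142310427 to 142326455, minus strand) had 11.4, 11.4 and 10.4 CPM in PC9 and 1.61, 1.56 and 1.99 CPM in PSPC9. It was reduced to 15.7% of its parental level in the fit, without overlap (log2 fold change −2.68 ± 0.11 SE, adjusted p = 6.89e-09, edgeR). SPRY2 (ENSG00000136158, chromosome 13, 80335976 to 80341126, minus strand) had 20.1, 20.8 and 19.1 CPM in PC9 and 9.52, 8.80 and 10.5 CPM in PSPC9. It kept 48.2% of its parental level, again without overlap (log2 fold change −1.05 ± 0.08 SE, adjusted p = 4.22e-07, edgeR).

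The SPRED genes moved least. SPRED2 (ENSG00000198369, chromosome 2, 65310851 to 65432637, minus strand) had 58.2, 59.9 and 60.0 CPM in PC9 and 48.3, 49.0 and 48.2 CPM in PSPC9. The replicates of each group were within about 2 CPM of each other and the groups did not overlap. SPRED2 was therefore past the limit with a small difference, −0.29 ± 0.04 (SE) on the log2 scale (adjusted p = 6.68e-05 by edgeR). SPRED1, the gene mutated in Legius syndrome (ENSG00000166068, chromosome 15, 38252836 to 38357249, plus strand), had 49.6, 42.1 and 47.0 CPM in PC9 and 42.9, 39.4 and 40.3 CPM in PSPC9. The second PC9 library lay below the first PSPC9 library, so the groups overlapped. Its log2 fold change was −0.18 ± 0.06 (SE) with an adjusted p of 0.027 in the edgeR test, and this call depended on the second PC9 library and on the scaling. Without the second PC9 library the log2 fold change was −0.24 with an adjusted p of 0.0016, and with library size as the only scaling it was −0.23 with an adjusted p of 0.0075.

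Both ETS factors were lower in PSPC9, ETV4 by more than ETV5. ETV4 and ETV5 belong with ETV1 to the PEA3 group of ETS factors, which act downstream of ERK and are amplified or rearranged in several cancers. ETV4 (ENSG00000175832, chromosome 17, 43527844 to 43579620, minus strand) had 62.5, 71.6 and 64.8 CPM in PC9 and 23.1, 24.6 and 24.6 CPM in PSPC9. Its log2 fold change was −1.46 ± 0.06 (SE), with an adjusted p of 5.23e-09 by edgeR's quasi-likelihood test. ETV5 (ENSG00000244405, chromosome 3, 186046314 to 186110318, minus strand) had 68.4, 69.2 and 69.0 CPM in PC9 and 40.4, 41.3 and 39.3 CPM in PSPC9. ETV5 kept 58.5% of its level, the groups were well apart, and its log2 fold change of −0.77 ± 0.04 (SE) had an adjusted p of 3.90e-08 by edgeR. ETV4 overlaps exons of DHX8 on the opposite strand and ETV5 those of DGKG on the same strand. Only 1.67% of the 31-base words of ETV4 and 2.89% of those of ETV5 are shared with other genes. The raw counts of DHX8 were 2204 to 2224 in PC9 and 1984 to 2426 in PSPC9, and those of DGKG were 305 to 342 in PC9 and 470 to 535 in PSPC9, so neither neighbour showed the fall of its ETS gene.

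The falls formed an order in which some neighbouring genes could not be separated. Each PSPC9 library was set against the PC9 mean on the log2 scale, and the ranges of 3 libraries were compared as a description that leaves out the spread of PC9. The range was −3.87 to −3.54 for DUSP6 and −3.63 to −3.45 for SPRY1, which overlapped. Next came SPRY4 with −2.83 to −2.47 and DUSP5 with −2.51 to −2.21, which overlapped each other and neither SPRY1 nor ETV4. ETV4 with −1.52 to −1.43 overlapped DUSP4 with −1.46 to −1.38. SPRY2 (−1.19 to −0.93) and ETV5 (−0.81 to −0.74) did not overlap their neighbours. SPRED2 had −0.30 to −0.28 and SPRED1 −0.23 to −0.11, which did not overlap. These ranges leave out that SPRED1 varied from 42.1 to 49.6 CPM within PC9. Over the alternatives the fitted value ran from −0.24 to −0.12 for SPRED1 and from −0.35 to −0.29 for SPRED2. The order of this pair was not tested. The Sprouty and phosphatase groups therefore each held members with large and with moderate falls, and the SPRED pair stood at the end of the order.

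Because counts grow with transcript length, levels were compared between genes in transcripts-per-million (TPM), computed from the transcript counts and the annotated lengths. ETV4 was the most abundant of the 10 in both conditions, with 66.4 ± 4.62 TPM in PC9 and 26.0 ± 0.55 TPM in PSPC9 (SD, n = 3). DUSP4 was next in PC9 with 47.0 ± 3.22 TPM and fell to the fourth place in PSPC9 with 18.3 ± 1.02 TPM, below ETV5 (35.9 ± 2.31 TPM in PC9 and 23.2 ± 2.36 TPM in PSPC9) and SPRED2 (26.0 ± 1.11 TPM and 21.9 ± 0.60 TPM). In PC9 a middle group of DUSP6, SPRY2, SPRY1, DUSP5 and SPRED1 lay between 13.1 and 17.2 TPM, where DUSP6 overlapped SPRY2, SPRY2 overlapped SPRY1 and DUSP5 overlapped SPRED1. This group came apart in PSPC9. SPRED1 stood at 11.9 ± 1.22 TPM, SPRY2 at 8.27 ± 0.82 TPM, DUSP5 at 3.09 ± 0.44 TPM, DUSP6 at 1.35 ± 0.26 TPM and SPRY1 at 1.25 ± 0.11 TPM, and of these neighbours only DUSP6 and SPRY1 overlapped. SPRY4 had the lowest level in both, 4.60 ± 0.43 TPM in PC9 and 0.68 ± 0.09 TPM in PSPC9. Together the 10 genes made up 258 ± 9.39 TPM in PC9 and 116 ± 3.32 TPM in PSPC9.

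**Figure D2:**
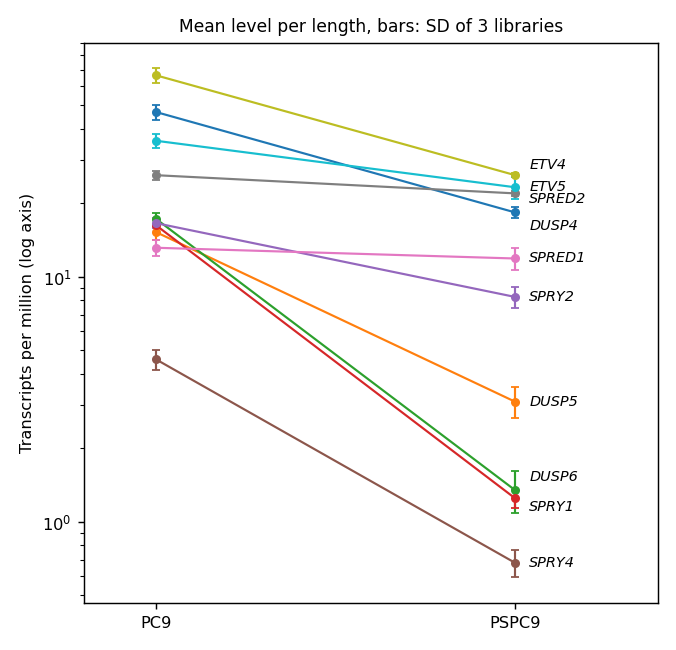
Mean level per length of each of the 10 genes in transcripts-per-million (log axis) in PC9 and PSPC9, joined by a line, with bars for the SD of 3 libraries. Genes between 13.1 and 17.2 TPM in PC9 spread out from 1.25 to 11.9 TPM in PSPC9.

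The fall of DUSP4, DUSP5 and DUSP6 was not shared by the other MAP kinase phosphatases, and the phosphatase pool changed in make-up. Of the 7 others 5 rose and 0 fell past the limit, where 28.7% of all tested genes rose, with a median log2 fold change of 1.24. DUSP1, an immediate-early nuclear phosphatase that acts mainly on p38 and JNK, had 22.3, 23.5 and 24.2 CPM in PC9 and 82.1, 81.1 and 83.8 CPM in PSPC9. The groups were far apart, a log2 difference of 1.82 ± 0.05 (SE, adjusted p = 1.67e-10 by edgeR). DUSP10 and DUSP16, which act on p38 and JNK, rose by log2 fold changes of 1.24 and 0.55, from 8.26 to 19.5 CPM and from 65.0 to 95.4 CPM in the mean. DUSP8, of the same group, rose by 1.47 from 7.604 to 21.0 CPM, and DUSP9, an ERK-directed cytoplasmic phosphatase, rose by 1.46 at a very low level, from 0.32 to 0.89 CPM. DUSP7, a cytoplasmic phosphatase of the DUSP6 type, had a log2 fold change of 0.21 with an adjusted p of 0.023 and did not pass the limit in the edgeR test. DUSP2, an inducible nuclear phosphatase, had an adjusted p of 0.74 in that test, at a log2 fold change of −0.07.

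Per length, the 3 feedback phosphatases together made up 79.5 ± 4.85 TPM in PC9 and 22.8 ± 1.67 TPM in PSPC9 (SD, n = 3). The 7 others made up 52.0 ± 3.04 TPM in PC9 and 132 ± 5.45 TPM in PSPC9. The sum of all 10 phosphatases was 123 to 137 TPM in the PC9 libraries and 149 to 163 TPM in the PSPC9 libraries, so the total did not fall. The share of DUSP4, DUSP5 and DUSP6 in that sum was 60.5% ± 0.78 in PC9 and 14.7% ± 0.40 in PSPC9. DUSP4 alone held 35.8% ± 0.42 in PC9 and 11.8% ± 0.17 in PSPC9, and the share of DUSP1 was 16.8% ± 0.34 in PC9 and 52.3% ± 1.30 in PSPC9. The most abundant phosphatase mRNA was thus DUSP4 in every PC9 library and DUSP1 in every PSPC9 library.

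**Figure D3:**
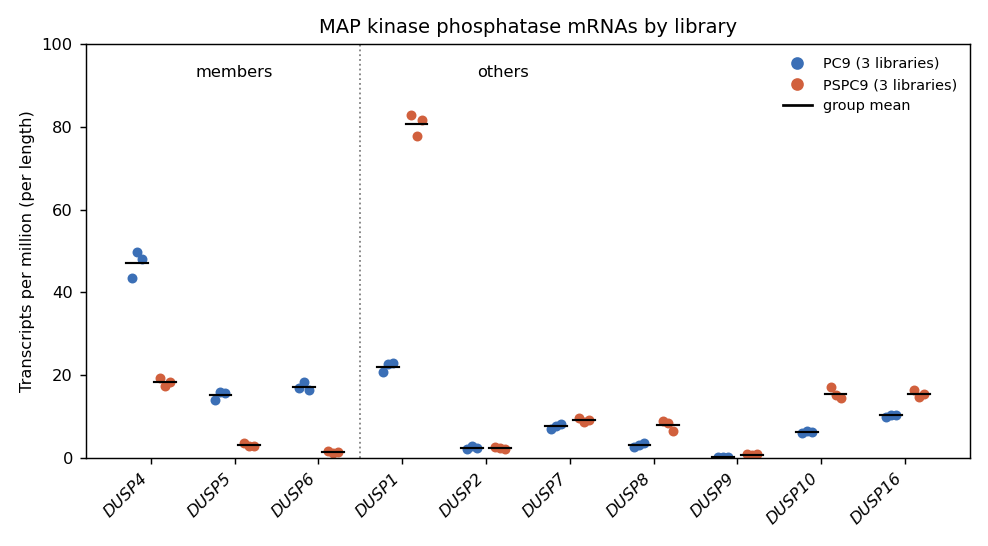
Level per length of the 10 MAP kinase phosphatase mRNAs in transcripts-per-million (linear axis), with a point for each of 3 PC9 (blue) and 3 PSPC9 (orange) libraries and a bar at each mean, the feedback phosphatases left of the dotted line. DUSP4 is highest in PC9 at 43.4 to 49.6 TPM and DUSP1 is highest in PSPC9 at 77.8 to 82.9 TPM.

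The Sprouty and PEA3 families also changed in make-up. With the remaining Sprouty gene SPRY3 included, SPRY1 and SPRY2 held nearly equal shares of the family in PC9, 42.4% ± 1.23 and 43.2% ± 1.02 of the TPM (SD, n = 3). In PSPC9 SPRY2 held 71.0% ± 1.07 and SPRY1 10.7% ± 0.58 of a family sum that was 38.3 ± 1.23 TPM in PC9 and 11.6 ± 1.00 TPM in PSPC9. SPRY3 itself rose, from 4.41 to 6.58 CPM (log2 fold change 0.58, adjusted p = 0.000184 by edgeR). ETV1, the other PEA3 factor, had 9.53, 8.93 and 8.44 CPM in PC9 and 0.75, 0.57 and 0.53 CPM in PSPC9, with no overlap (log2 fold change −3.86 ± 0.14 SE, adjusted p = 2.48e-09, edgeR), which is within the errors of the fall of DUSP6. The 3 PEA3 factors together made up 110 ± 4.32 TPM in PC9 and 50 ± 2.79 TPM in PSPC9. SPRED3, the least abundant SPRED gene, fell from 3.65 to 1.83 CPM (log2 fold change −0.998, adjusted p = 5.87e-05 by edgeR), beside −0.18 for SPRED1 and −0.29 for SPRED2.

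Other genes known to be induced by ERK were divided. Of 23 listed genes 22 were tested, 10 fell and 6 rose, so that 72.7% passed the limit in either direction, beside 56.8% of all tested genes. Their median lay at −0.18 on the log2 scale. The immediate-early factor FOS fell from 115 ± 3.36 to 20.5 ± 0.67 CPM (SD, n = 3), a log2 fold change of −2.49, and the immediate-early factor EGR1 fell from 126 ± 6.22 to 33.4 ± 1.84 CPM, a log2 fold change of −1.92. PHLDA1, a further early-induced gene, fell from 109 ± 1.48 to 29.7 ± 1.31 CPM, a log2 fold change of −1.88, and ETV1 is given above. The ephrin receptor gene EPHA4 rose from 4.30 ± 0.21 to 17.2 ± 1.06 CPM, a log2 fold change of 2.00. For these 5 genes, which had the smallest p-values of the list, the adjusted p by edgeR ran from 2.17e-11 to 5.33e-09. The 6 genes that rose, named after their values were seen, were EPHA4, the EGFR ligand gene HBEGF (log2 fold change 1.27), IER3, FOSL1, TFPI2 and MYC, and for MYC the rise was 0.16 with an adjusted p of 0.0077 by edgeR. CCND1, which encodes cyclin D1 and was also named after its value was seen, fell by 0.27 on the log2 scale. Large falls were thus found in part of the ERK output genes and were not a property of the whole list.

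Of 17 other inhibitors of the pathway from the receptor to ERK 10 fell and 3 rose, with a median log2 fold change of −0.38. These counts include SPRY3 and SPRED3, given above. The share called in either direction was 76.5%, beside 56.8% of all tested genes, and 28.1% of all tested genes fell. By more than 2-fold, 2 of the 17 fell and 1 rose. The RAS GTPase-activating genes RASA1 and RASA2 fell by 1.01 and 0.89 on the log2 scale, from 147 to 72.8 CPM and from 29.3 to 15.8 CPM. The genes of the receptor ubiquitin ligases CBLC and CBLB fell by 1.33 and 0.61 on the log2 scale. ERRFI1, which encodes the EGFR inhibitor MIG6, fell by 0.44 on the log2 scale, from 76.8 ± 0.90 to 56.6 ± 0.84 CPM (SD, n = 3). For these 5 genes, which had the smallest p-values of the list, the adjusted p by edgeR ran from 4.55e-09 to 1.94e-06. Not every gene of these families fell, and 2 more were named after their values were seen. NF1, the gene of neurofibromin, rose by 0.28 on the log2 scale (adjusted p = 0.0094, edgeR). CBL had a log2 fold change of −0.15 and did not pass the limit (adjusted p = 0.064, edgeR). LRIG1, which encodes a transmembrane protein that lowers EGFR levels and was named after its values were seen, had 1 count over the PC9 libraries and 91 over the PSPC9 libraries, a ratio of 98.0 with a 95% counting interval of 17.2 to 3912.

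The cascade that the feedback genes act on showed smaller differences. Of 26 genes from adaptors to ERK and its substrates 14 rose and 2 fell, with a median log2 fold change of 0.23, and 0 of them changed by more than 2-fold. The share called in either direction, 61.5%, was near the 56.8% of all tested genes, and 28.7% of all tested genes rose. With the upper quartile or library size only as scaling 13 rose and 4 fell. MAPK3, which encodes the kinase ERK1, had 98.2, 111 and 105 CPM in PC9 and 54.5, 57.1 and 59.8 CPM in PSPC9. The groups did not overlap (log2 fold change −0.87, adjusted p = 1.37e-07 by edgeR). PTPN11, the gene of the phosphatase SHP2 that promotes RAS activation, rose by 0.63 on the log2 scale, NRAS rose by 0.49, and the adaptor gene SHC1 fell by 0.67. Of 4 genes for repressors that ERK regulates, ATXN1L and ATXN1, partners of the repressor CIC, rose by 0.63 and 0.47 on the log2 scale. CIC, which represses ETV4 and ETV5 when ERK is inactive, had 70.4, 87.0 and 77.1 CPM in PC9 and 79.2, 82.3 and 85.0 CPM in PSPC9, with overlapping groups and an adjusted p of 0.36 by edgeR. ERF, an ETS repressor, had a log2 fold change of −0.25 and did not pass the limit (adjusted p = 0.021, edgeR).

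**Figure D4:**
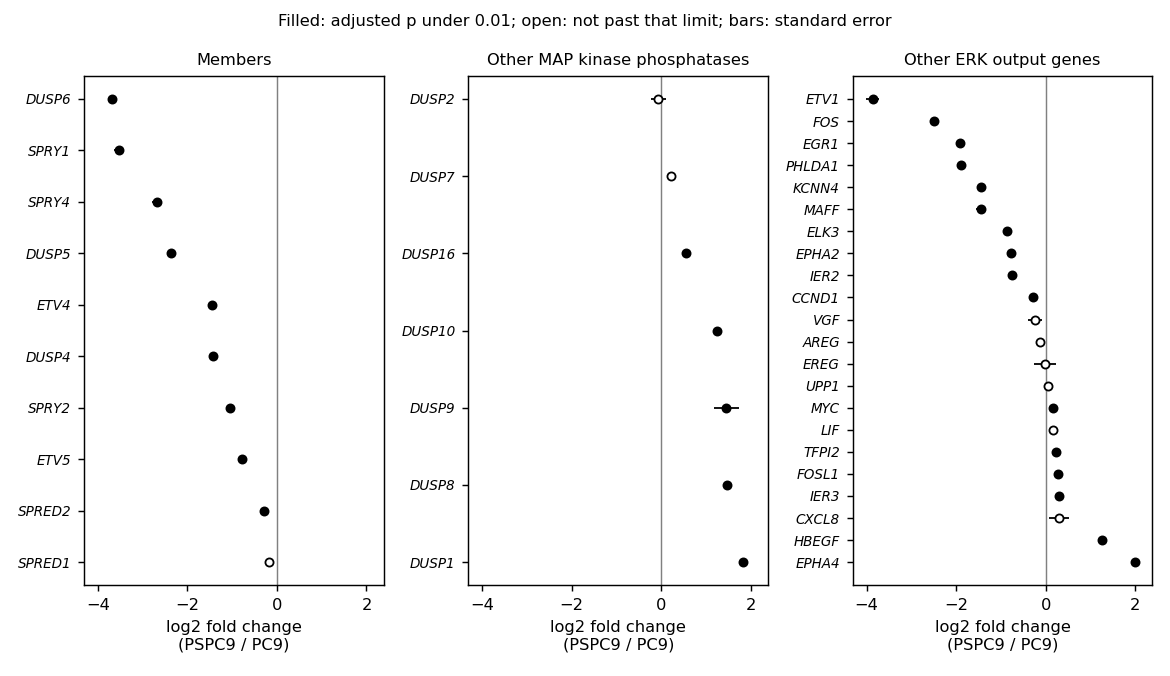
Log2 fold change of PSPC9 over PC9 for the 10 genes (left panel), the 7 other MAP kinase phosphatases and the 22 other tested ERK output genes, with bars for the standard error and filled points for an adjusted p under 0.01 by edgeR. The 10 genes lie at or below −0.18, 5 of the other phosphatases have filled points above 0, and the output genes run from −3.86 to 2.00.

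At the level of transcripts, the called falls included the most abundant transcript of every gene but SPRED1, and no change in transcript usage was called. The transcript table lists 62 transcripts of the 10 genes, of which 53 had counts and 29 could be tested. Of these 14 were lower and 0 higher past the limit, against 3.91% of all tested transcripts that were lower. The count was less stable than that of genes, with 6 under the replicate block, 8 without PC9 replicate 3, 9 without PSPC9 replicate 2 and 9 without PSPC9 replicate 3. For DUSP4, DUSP5, SPRY2, SPRED1, SPRED2 and ETV5 a single transcript held 93.8% to 99.7% of the gene's counts in either condition. DUSP6 was spread over 3 coding transcripts that fell alike. DUSP6-201, DUSP6-202 and DUSP6-204 held 56.2%, 28.4% and 14.2% of its counts in PC9 and 56.9%, 27.9% and 15.2% in PSPC9, with log2 fold changes of −3.69, −3.74 and −3.61. SPRY4-201 held 73.0% of the SPRY4 counts in PC9 and 72.4% in PSPC9 and fell by 2.72 on the log2 scale, and SPRY4-202, with 21.1% and 14.1%, fell by 3.27. The retained-intron transcript SPRY4-206 had 23, 22 and 11 counts in PC9 and 10, 0 and 13 in PSPC9 and did not pass the limit (adjusted p = 0.56, edgeR).

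SPRY1 and ETV4 were less certain at this level. SPRY1-208 held 66.3% ± 11.97 of the SPRY1 counts in PC9 and 56.5% ± 2.99 in PSPC9 (SD, n = 3), with a log2 fold change of −3.79. SPRY1-209 had 0, 20 and 66 counts in PC9 and 13, 0 and 16 in PSPC9, so its share varied widely between replicates of a condition. SPRY1-207, with 0, 39 and 3 counts in PC9 and 1, 13 and 1 in PSPC9, was too low to be tested. Of the ETV4 transcripts, ETV4-202 held 34.4% in PC9 and 40.7% in PSPC9 and fell by 1.23 on the log2 scale. ETV4-203, the next in PC9 with 24.6% ± 7.36 of the counts there and 15.4% ± 7.24 in PSPC9, had a log2 fold change of −2.16 and did not pass the limit (adjusted p = 0.027, edgeR). ETV4-201, with 18.2% and 14.2%, fell by 1.84, just inside the limit (adjusted p = 0.0096, edgeR). ETV4-211, with 11.4% and 9.80%, was just outside it at a log2 fold change of −1.71 (adjusted p = 0.0105, edgeR). ETV4-205 had 50, 169 and 103 counts in PC9 and 85, 66 and 105 in PSPC9, with overlapping groups, and did not pass the limit. In edgeR's diffSpliceDGE test 0 of the 8 genes with enough transcripts had a change in usage, against 1.93% of all genes tested for it, and 0 of the 8 had an unadjusted p under 0.05. The lowest unadjusted p was 0.17, for ETV4, and every adjusted p was 1.

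The profile of DUSP6 over the 6 libraries was shared by many genes. Among the other members the Pearson correlation of log2 CPM with DUSP6 ran from 0.991 to 0.998, except for SPRED1 with 0.737. Among 12274 genes outside the set with a mean log2 CPM above 1, 743 had a correlation above 0.99, and the closest were HDAC8, GTF2H5 and AGR2. Their log2 fold changes were −0.41, −0.52 and −5.78, so the measure ranks by how cleanly the conditions separate and not by the size of the fall. These correlations rest on 6 libraries that share 2 conditions and are given as a description.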

How the data were processed

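The values the authors deposited are estimated counts from kallisto, given in whole numbers and not normalized, in 1 table per gene symbol and 1 per transcript. Per the labels and the study's methods, poly-A libraries were sequenced, adaptors were trimmed, reads were filtered with FASTP and assigned to Ensembl transcripts of GRCh38. The submitters' processing notes name kallisto 0.46.1 and sleuth 0.30.0. Whether the libraries keep strand is not given in the sources used here. The labels gave the groups and replicate numbers, while the study's methods gave the dose and how many cultures were used. All 6 libraries were used.

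All genes were fitted at once in R 4.3.3 with edgeR 4.0.16 (filterByExpr defaults, TMM, glmQLFit and glmQLFTest, no block), with Benjamini-Hochberg adjustment over the 14626 genes and a limit of 0.01. CPM values are TMM-normalized. The SE is the size of the log2 fold change divided by the square root of F. Percentages of the parental level of a gene come from the fitted fold change. Transcripts (54499 tested) were fitted in the same way, and usage was tested with diffSpliceDGE and Simes p-values. TPM used GENCODE 44 lengths, known for 167067 of 188753 transcripts with 95.8% of the counts. Shared words are 31-base words of the GENCODE 44 transcripts. The count test was tested on simulated data. The precision is set by the spread between 3 libraries, and the interval of a count ratio covers counting error only.

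The members and the gene lists were chosen with earlier results of these data known. Genes outside the set are named if they are among the 5 with the smallest p-values past the limit in their list, or where said to be named after their values were seen. Of the genes this rule selects, 1 is not reported here. The members' relatives (other phosphatases, SPRY3 and SPRED3) were also named with their values known. The 3 genes most like DUSP6 in profile were taken by correlation. Transcripts holding at least 10% of a gene's counts are named. As alternatives, each library was left out in turn, a replicate block was added, normalizations, filters and limits were changed, transcript counts were summed to genes, and limma 3.58.1 (voom) and DESeq2 1.42.0 were run. Figures were drawn with matplotlib 3.10.9.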

Additional observations from a re-analysis of the deposited data

How the results depend on the processing

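The 10 members were refitted under each alternative, and of the 150 values 146 kept their direction and their side of the limit, 0 turned and 0 lost their call. The other 4 were all of SPRED1, which passed the limit with the upper quartile (adjusted p = 0.0097), with library size only (0.0075), with the replicate block (0.0053) and without PC9 replicate 2 (0.0016), and over all its alternatives the adjusted p ran from 0.0016 to 0.11. The members past the limit numbered 9 to 10 with each library left out and 7 with a fold limit of 2 added. With that limit added, all genes past it numbered 1691, the other ERK output genes 8, the other inhibitors 3 and the cascade components 0. Of the member transcripts 14 passed the limit, 6 under the replicate block, and 8 to 12 with a library left out. They numbered 8 without PC9 replicate 3, 9 without PSPC9 replicate 2 and 9 without PSPC9 replicate 3, and the cause was not tested beyond the fewer libraries. Same-numbered libraries had deviations with correlations of 0.12, 0.02 and 0.02, so the numbers were not taken to pair the samples. The block gave 8671 genes and 10 members past the limit, against 8307 and 9 without it. The scalings moved the median log2 fold change of all genes to between −0.06 and 0.00. In PSPC9, DUSP6 and SPRY1 rest on 37 to 59 counts a library.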
